A study of Mus musculus with 20 samples.

Results

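Eosinophil granulocytes are a minor population of the bone marrow, and their transcripts can be read in a neutrophil preparation that still holds some of them. The genes described here are 8 transcripts of the eosinophil lineage: Epx, Prg2 and Prg3 among the granule proteins, Ear1, Ear2 and Ear6 among the eosinophil-associated ribonucleases, and Il5ra and Ccr3 among the surface receptors. All 8 were found by symbol among the 24421 genes counted in each of 20 bone marrow neutrophil libraries, and all 8 were among the 14030 genes that passed the filter on low counts. They were selected on their levels (CPM and their differences between the 4 groups) in these same libraries, with earlier results known, so their own values are given as a description. Whether a member passed a threshold applied to all genes is stated in the same sense, beside the share of all genes that passed, and supports nothing by itself.

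Eosinophils arise in the bone marrow from progenitors that express the interleukin 5 receptor, and interleukin 5 drives their growth, survival and release into blood. During their development they load granules with cationic proteins and a peroxidase, so the messages for granule proteins are highest in eosinophil precursors of the marrow, and they fall in mature cells. Mature eosinophils follow eotaxins through the chemokine receptor encoded by Ccr3 and carry the lectin encoded by Siglecf on their surface.

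The study asked what loss of the clock gene Bmal1 in myeloid cells does in a lupus model driven by imiquimod (IMQ), a Toll-like receptor 7 agonist applied to the skin. There were 4 groups with 5 libraries each: untreated wild-type (WT) mice, untreated Bmal1 myeloid conditional KO mice (Bmal1Mye-/-), IMQ-treated WT mice and IMQ-treated Bmal1Mye-/- mice. WT mice were purchased C57BL/6J animals and not littermates, and Bmal1Mye-/- mice carried floxed Bmal1 alleles and a Cre inserted in Lyz2, which is active in neutrophils, monocytes and macrophages, so genotype cannot be told apart from origin of the colony. All mice were female, IMQ cream (5%) was put on the ears of animals aged 8 to 10 weeks at the start, 3 times per week for 6 weeks, and cells were taken in the morning by magnetic negative selection, which leaves behind cells that the depleting antibodies miss. The untreated mice received no IMQ, and no vehicle cream is named for them.

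Between 30782166 and 92613500 reads per library fell on genes. The neutrophil label held against its markers: 9 of the 10 neutrophil genes were listed (Ly6g was not listed), none was at 0, and their summed level was 69400 to 150000 CPM (each count divided by its library's TMM-adjusted total and put on the usual CPM scale, the unit of all levels below) over the 20 libraries. The 8 eosinophil genes together reached 13.3 to 202.0 CPM. Without treatment, Lyz2, the locus of the inserted Cre, had a level of 11400 ± 593 CPM (SD, n = 5) in WT and of 135.0 ± 29.8 CPM in Bmal1Mye-/- libraries. Bmal1 itself, listed as Arntl, was at 1.35 ± 0.322 and 0.721 ± 0.24 CPM in the same groups, a change that was not called by edgeR's quasi-likelihood test (log2 fold change -0.9 ± 0.38, adjusted p = 1.0), and its counts cover the whole gene, not the floxed part alone.

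In the mouse genome (build GRCm38, the same as mm10, GENCODE M21) the granule protein genes Prg2 and Prg3 are neighbours on the plus strand of chromosome 2, at 84980461-84983632 and 84988215-84993886. Epx lies on chromosome 11 at 87864000-87875536 (minus strand), Il5ra on chromosome 6 at 106710357-106749037 (minus strand) and Ccr3 on chromosome 9 at 124021972-124031689 (plus strand). The 3 ribonuclease genes are on chromosome 14: Ear1 at 43818765-43875517 (minus strand, a span that also covers ribonuclease pseudogenes), Ear2 at 44102654-44103534 (plus strand) and Ear6 at 51853699-51854643 (plus strand). Counts were deposited per gene, and the annotation behind them is not given in the sources used here.

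The promoter windows of RefSeq (build GRCm38.p6, 250 bases before to 50 bases after the start) were matched for 7 of the 8 genes, with no entry for Prg2. The windows of Prg3 and of the 3 ribonucleases are shown because Prg3 and Ear1 carried the same pattern over the libraries while Ear2, whose window is almost the same as that of Ear1, did not. In Prg3, capitals mark matches to GATAA on either strand, the core of the motif bound by GATA1, a transcription factor that eosinophil development needs. In Ear2 and Ear6, capitals mark bases that differ from Ear1 in a global alignment or that Ear1 lacks. Each is written 5′ to 3′ on the strand of its gene.
Prg3, chr2:84987965-84988264: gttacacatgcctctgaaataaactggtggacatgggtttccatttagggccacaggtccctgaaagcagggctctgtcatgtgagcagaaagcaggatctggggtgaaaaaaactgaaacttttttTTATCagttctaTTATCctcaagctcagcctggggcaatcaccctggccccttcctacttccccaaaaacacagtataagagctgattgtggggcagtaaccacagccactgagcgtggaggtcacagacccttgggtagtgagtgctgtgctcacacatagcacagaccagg
Ear1, chr14:43819590-43819889: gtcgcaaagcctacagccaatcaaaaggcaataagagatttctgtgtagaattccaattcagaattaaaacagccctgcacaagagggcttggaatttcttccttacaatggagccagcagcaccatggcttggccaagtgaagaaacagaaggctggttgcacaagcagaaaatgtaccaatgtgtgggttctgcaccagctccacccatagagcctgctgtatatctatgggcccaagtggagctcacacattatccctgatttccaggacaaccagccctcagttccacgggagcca
Ear2, chr14:44102404-44102703: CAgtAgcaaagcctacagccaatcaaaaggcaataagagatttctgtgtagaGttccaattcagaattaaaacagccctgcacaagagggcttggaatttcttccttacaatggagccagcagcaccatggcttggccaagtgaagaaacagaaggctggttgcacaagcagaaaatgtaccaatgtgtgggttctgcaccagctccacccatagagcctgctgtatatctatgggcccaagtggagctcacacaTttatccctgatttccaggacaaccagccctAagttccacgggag
Ear6, chr14:51853518-51853817: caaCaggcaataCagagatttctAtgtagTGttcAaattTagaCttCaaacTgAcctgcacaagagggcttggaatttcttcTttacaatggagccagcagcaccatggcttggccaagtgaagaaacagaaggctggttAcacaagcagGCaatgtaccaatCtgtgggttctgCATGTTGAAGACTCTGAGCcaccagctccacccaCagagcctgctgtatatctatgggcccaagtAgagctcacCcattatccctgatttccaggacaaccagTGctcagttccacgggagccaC
The Ear1 and Ear2 windows were 97.0% identical over 303 aligned positions, with 3 mismatches and 6 gapped positions, and the Ear1 and Ear6 windows 80.7% identical over 321 positions. Prg3 held 2 matches to GATAA or its reverse complement, Ear1, Ear2, Ear6, Il5ra and Ccr3 held 1 each, and the Epx window held none. Of all 32851 promoter windows, 25.4% held at least 1 match, and a match is a description of the letters only.

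Sequence likeness also limits the counts. The longest coding transcripts of Ear1 and Ear2 were 96.1% identical, and 42.6% of the 50-base windows of Ear1 and 58.5% of those of Ear2 occurred in no other annotated gene. The rest were shared among Ear1, Ear2, Ear6, Ear10 and 2 ribonuclease pseudogenes, Ear-ps2 and Ear-ps9. Reads were 50 bases long and reads placed at more than 1 position were 4.37% to 6.5% of each library, so the levels of Ear1 and Ear2 are uncertain. Ear6 (98.9% of windows in no other gene), Il5ra (99.0%), Epx, Prg2, Prg3 and Ccr3 (100% each) had almost no such windows.

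Levels can be compared between genes only per length of transcript. In untreated WT libraries Prg2 was highest at 52.2 ± 27.5 CPM per kb (SD, n = 5), followed by Ear2 (9.66 ± 0.552), Ear1 (5.45 ± 3.76), Epx (3.21 ± 2.43), Prg3 (1.7 ± 1.06), Ear6 (0.57 ± 0.412), Ccr3 (0.284 ± 0.0558) and Il5ra (0.11 ± 0.0428). Prg2 stood above Ear2 and Ccr3 above Il5ra by more than their SDs, while the ranges of mean ± SD of the other neighbours in this order overlapped. In IMQ-treated Bmal1Mye-/- libraries the order was Prg2 (90.8 ± 52.9 CPM per kb), Ear1 (15.6 ± 12.5), Epx (10.3 ± 6.23), Ear2 (6.81 ± 1.66), Prg3 (3.41 ± 1.78), Ear6 (1.57 ± 1.03), Il5ra (0.226 ± 0.23) and Ccr3 (0.16 ± 0.108). There Prg2 stood above Ear1 and Ear6 above Il5ra by more than their SDs, and the other neighbours overlapped. The full transcript length was used, shared windows included, so the places of Ear1 and Ear2 in both orders are uncertain.

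**Figure D1:**
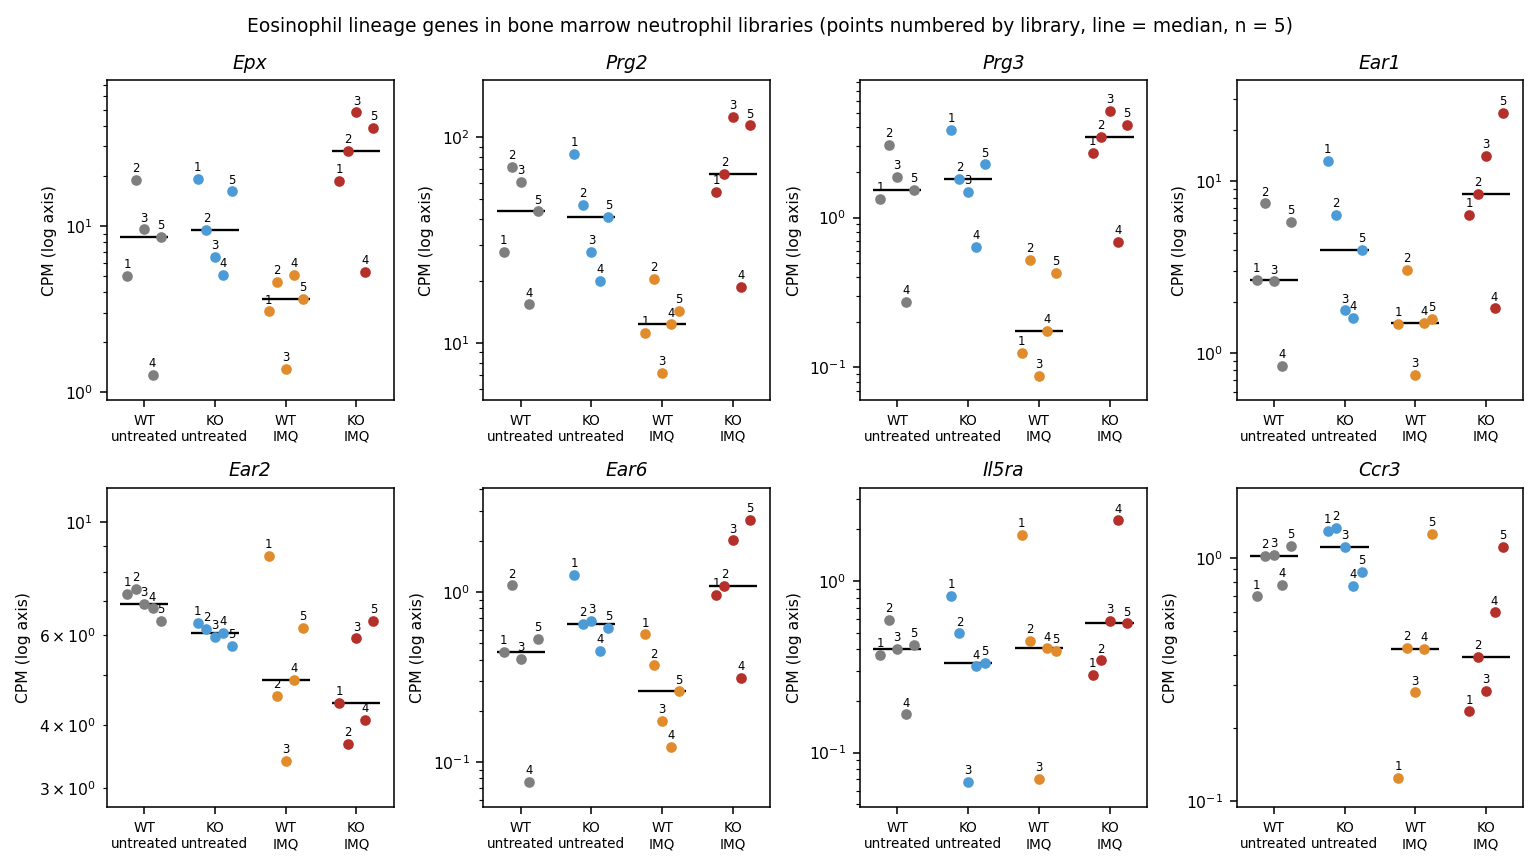
Level of each of the 8 eosinophil lineage genes in the 20 libraries, in CPM on a log axis whose range differs between panels. Points are libraries numbered by replicate, black lines are group medians (n = 5); Epx, Prg2, Prg3, Ear1 and Ear6 share a shape, with library 4 lowest among the IMQ-treated Bmal1Mye-/- libraries, and Ear2, Il5ra and Ccr3 do not show it.

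In all IMQ-treated Bmal1Mye-/- preparations but library 4, the granule protein genes Epx, Prg2 and Prg3 lay above every IMQ-treated WT one. Only IMQ-treated Bmal1Mye-/- libraries 3 and 5 also lay above every untreated library for each of these genes. Epx encodes eosinophil peroxidase, the haem enzyme of the granule matrix. In untreated WT libraries 1 to 5, Epx was at 5.01, 18.8, 9.54, 1.27 and 8.61 CPM, and in untreated Bmal1Mye-/- libraries at 19.1, 9.42, 6.53, 5.07 and 16.1 CPM. After IMQ, it was at 3.06, 4.6, 1.38, 5.09 and 3.64 CPM in WT and at 18.6, 28.3, 48.1, 5.27 and 38.7 CPM in Bmal1Mye-/- libraries. The untreated groups overlapped over most of their range, whereas the 2 IMQ groups did not overlap, by the small margin between WT library 4 and Bmal1Mye-/- library 4. In these bulk preparations, a difference in the number of eosinophils and a difference in the RNA of this gene per eosinophil cannot be told apart.

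Prg2 encodes major basic protein, the main component of the crystalline granule core. It was at 27.6, 71.6, 60.6, 15.4 and 43.6 CPM in untreated WT and at 82.8, 46.7, 27.8, 20.1 and 40.9 CPM in untreated Bmal1Mye-/- libraries. With IMQ, the values were 11.2, 20.5, 7.17, 12.3 and 14.3 CPM in WT and 54.3, 66.4, 126.0, 18.7 and 114.0 CPM in Bmal1Mye-/- libraries. The untreated groups had nearly the same mean, and the IMQ groups overlapped only because Bmal1Mye-/- library 4 lay below WT library 2.

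Prg3 encodes a second, less abundant homologue of major basic protein. Its levels were 1.33, 3.06, 1.87, 0.273 and 1.53 CPM in untreated WT, and 3.84, 1.82, 1.48, 0.636 and 2.26 CPM in untreated Bmal1Mye-/- libraries. IMQ-treated WT libraries held 0.125, 0.524, 0.0875, 0.176 and 0.427 CPM and IMQ-treated Bmal1Mye-/- libraries 2.71, 3.47, 5.17, 0.688 and 4.14 CPM. The IMQ groups did not overlap, and the lowest value rests on 5 reads. Over the 20 libraries the highest level of Prg3 was 59.1 times the lowest, the widest range of the 8 genes.

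The ribonucleases did not behave alike. Ear1, one of the mouse homologues of eosinophil cationic protein and eosinophil-derived neurotoxin, was at 2.67, 7.45, 2.62, 0.85 and 5.84 CPM in untreated WT and at 13.2, 6.38, 1.78, 1.61 and 3.98 CPM in untreated Bmal1Mye-/- libraries. After IMQ it was at 1.48, 3.07, 0.752, 1.5 and 1.58 CPM in WT and at 6.38, 8.44, 14.0, 1.83 and 25.0 CPM in Bmal1Mye-/- libraries. The IMQ groups overlapped through Bmal1Mye-/- library 4 alone, which lay below WT library 2.

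Ear6 was low in every library, and followed Ear1. It was at 0.0759 to 1.09 CPM (median 0.445) in untreated WT, at 0.449 to 1.26 (0.648) in untreated Bmal1Mye-/-, at 0.123 to 0.562 (0.26) in IMQ-treated WT and at 0.312 to 2.64 (1.08) in IMQ-treated Bmal1Mye-/- libraries. The library with the lowest level held 5 reads of it.

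Ear2, in contrast, varied little. Its levels were 7.23, 7.41, 6.92, 6.77 and 6.4 CPM in untreated WT and 6.34, 6.18, 5.96, 6.06 and 5.72 CPM in untreated Bmal1Mye-/- libraries. With IMQ they were 8.59, 4.56, 3.39, 4.9 and 6.21 CPM in WT and 4.42, 3.66, 5.91, 4.09 and 6.39 CPM in Bmal1Mye-/- libraries. The untreated groups did not overlap, with all 5 Bmal1Mye-/- libraries just below the WT ones, and the IMQ groups overlapped throughout. Its highest level was 2.53 times its lowest, against 33.2 times for Ear1.

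Both receptors were near the bottom of the range. Il5ra encodes the ligand-binding chain of the interleukin 5 receptor. It was at 0.37, 0.595, 0.404, 0.167 and 0.424 CPM in untreated WT and at 0.82, 0.496, 0.0673, 0.318 and 0.335 CPM in untreated Bmal1Mye-/- libraries. With IMQ it was at 1.85, 0.447, 0.07, 0.405 and 0.39 CPM in WT and at 0.285, 0.345, 0.586, 2.26 and 0.566 CPM in Bmal1Mye-/- libraries. WT library 1 and Bmal1Mye-/- library 4 stood apart from the rest, and the lowest library held 2 reads. The same 2 libraries stood apart in interferon-induced transcripts, which were looked up after these values were seen: Ifit3 was at 416.0 and 433.0 CPM in them and at 1.19 to 51.4 CPM in the other 18, and Rsad2 at 826.0 and 1020.0 CPM against 21.0 to 192.0. The part of that in the Il5ra values was not tested.

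Ccr3, the eotaxin receptor, was at 0.696, 1.02, 1.03, 0.774 and 1.12 CPM in untreated WT and at 1.29, 1.33, 1.11, 0.767 and 0.875 CPM in untreated Bmal1Mye-/- libraries. After IMQ it was at 0.125, 0.427, 0.28, 0.423 and 1.26 CPM in WT and at 0.234, 0.391, 0.284, 0.597 and 1.11 CPM in Bmal1Mye-/- libraries. In both genotypes 4 of 5 IMQ libraries were below every untreated library, and library 5 was the exception.

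The comparisons were fitted across all 14030 genes with edgeR's quasi-likelihood test, and a gene was called at a Benjamini-Hochberg adjusted p under 0.05 over all of them. For IMQ in WT mice, Prg2 and Prg3 were called lower, 2 of the 8 genes, where 1.60% of all genes tested were called lower. The log2 fold changes were -1.74 ± 0.48 (SE) for Prg2 and -2.59 ± 0.64 for Prg3, falls to 0.299 and 0.167 of the untreated level. Prg2 kept its call in 5 of the 20 fits that left out 1 library and in 3 of 8 other fits, and Prg3 in 12 and 6. Epx (-1.28 ± 0.59), Ear1 (-1.21 ± 0.67), Ear6 (-0.78 ± 0.59), Ccr3 (-0.88 ± 0.48), Ear2 (-0.33 ± 0.2) and Il5ra (0.68 ± 0.7) were not called. The median over the 8 genes was -1.05, beside 0.03 over all genes. No gene of the 8 was called when only the 2 WT groups were fitted (0.455% of all genes called lower), nor without any 1 of 8 libraries (untreated WT 1, 2, 3 or 5, or IMQ-treated WT 1, 2, 3 or 4, with 0.0911% to 0.511% of all genes called lower). Without IMQ-treated WT library 5 the count was 3, with Ccr3 added, and 6.38% of all genes were called lower. With the replicate number as a block Prg2 lost its call (-1.55 ± 0.43, edgeR adjusted p = 0.0693) and Prg3 kept it. In that fit 66 of 14030 genes were called lower.

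In Bmal1Mye-/- mice, IMQ moved none of the 8 genes past the threshold, against 23.5% of all genes called in either direction, and 2 of the 8 had an unadjusted p under 0.05 beside 39.3% of all genes. DESeq2 also called none. Epx (log2 fold change 1.3 ± 0.58), Ear1 (1.04 ± 0.65), Ear6 (0.94 ± 0.56), Prg2 (0.8 ± 0.47) and Prg3 (0.68 ± 0.58) had positive estimates, Il5ra was at 0.96 ± 0.7, and Ear2 (-0.31 ± 0.2) and Ccr3 (-1.03 ± 0.47) had negative ones. The median was 0.87, beside 0.02 over all genes. With the replicate number as a block, Ccr3 was called lower (-1.3 ± 0.43) beside 8.95% of all genes, and it was also called without Bmal1Mye-/- IMQ library 5, beside 4.27%. Without Bmal1Mye-/- IMQ library 4, Epx was called higher, as were 17.3% of all genes.

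**Figure D2:**
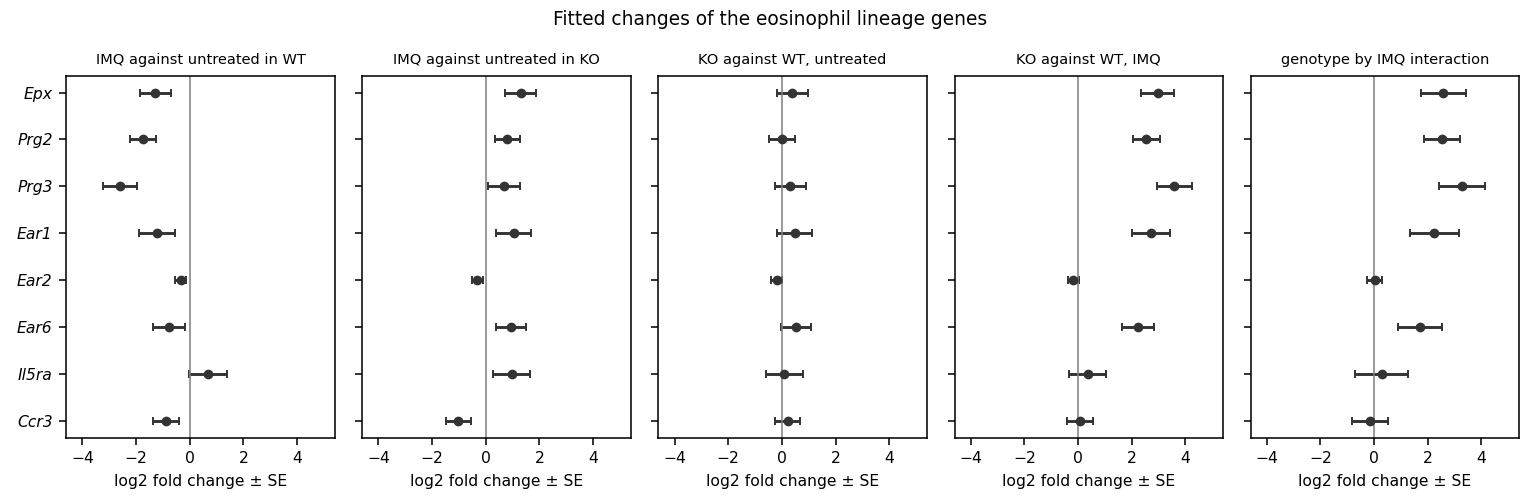
Fitted log2 fold change of each of the 8 genes (points) with its standard error (bars) in the 4 comparisons and the interaction, from edgeR over all 20 libraries. Epx, Prg2, Prg3, Ear1 and Ear6 lie below 0 for IMQ in WT and between 2.24 and 3.59 for KO (Bmal1Mye-/-) against WT after IMQ, while Ear2 stays between -0.33 and 0.02.

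Between the genotypes without treatment, the 8 genes differed little. None was called, 0.207% of all genes were, none of the 8 had an unadjusted p under 0.05 beside 2.19% of all genes, and DESeq2 called none. The estimates for Bmal1Mye-/- against WT ran from -0.2 ± 0.2 (Ear2) to 0.52 ± 0.57 (Ear6), with Prg2 at 0.0 ± 0.47 and Epx at 0.38 ± 0.58. Ear2 was the single gene of the 8 whose groups did not overlap, lower in Bmal1Mye-/- mice, as were 0.727% of all genes.

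After IMQ, Epx, Prg2 and Prg3 were called higher in Bmal1Mye-/- than in WT preparations, 3 of the 8 genes, where 0.185% of all genes tested were called higher. Prg3 differed 12.0-fold (log2 3.59 ± 0.66), Epx 7.81-fold (2.97 ± 0.62) and Prg2 5.81-fold (2.54 ± 0.5). Ear1 (log2 2.73 ± 0.7) and Ear6 (2.24 ± 0.6) were not called, and Il5ra (0.37 ± 0.69), Ccr3 (0.06 ± 0.48) and Ear2 (-0.17 ± 0.2) had estimates smaller than their standard errors, that of Ear2 turning positive with scaling by total count (0.06). The median over the 8 was 2.39, beside 0.03 over all genes. In Epx and Prg3 the groups did not overlap, which held for 0.627% of all genes in this direction. The control libraries of this comparison are the IMQ-treated WT ones that also enter the WT comparison above, so the high ratio and the WT fall share those 5 libraries.

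The calls in that comparison rest on few libraries. Without WT IMQ library 1 or 4, or without Bmal1Mye-/- IMQ library 3, none of the 8 genes was called, and 0.0700% to 0.0910% of all genes were called higher. Without WT IMQ library 5 or Bmal1Mye-/- IMQ library 5, only Prg3 of the 8 was, beside 0.0981% of all genes. Epx, Prg2, Prg3, Ear1 and Ear6 were all called without WT IMQ library 3, where the share of all genes called higher rose to 13.5% (1921 genes, against 26 with every library). The same 5 were called without Bmal1Mye-/- IMQ library 4, where the share was 1.19%. Epx kept its call in 5 of the 20 fits that left out 1 library, and Prg2 and Prg3 in 15 and 17. With the replicate number as a block Epx lost its call (2.64 ± 0.63, edgeR adjusted p = 0.106), and Prg2 and Prg3 kept theirs. In that fit 26 of 14030 genes were called higher. DESeq2 called 5 of the 8 higher, beside 1.65% of all genes, and a fit of the 2 IMQ groups alone called none, beside 0.0870%. The estimates without any 1 library stayed between 3.36 and 3.98 for Prg3, 2.67 and 3.24 for Epx and 2.28 and 2.8 for Prg2.

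The interaction asks whether IMQ changed a gene differently in the genotypes. It was not called for any of the 8 genes or for any gene at all (0.00% of those tested), and DESeq2 called none. The estimates were 3.27 ± 0.86 for Prg3, 2.58 ± 0.83 for Epx, 2.54 ± 0.67 for Prg2, 2.25 ± 0.93 for Ear1 and 1.72 ± 0.82 for Ear6, and within 0.28 of 0 for Ear2, Il5ra and Ccr3. Of the 8 genes 5 had an unadjusted p under 0.05, beside 5.14% of all genes. A difference in the IMQ response between genotypes was therefore not shown for these genes.

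Within the 8 genes a group of 5, noticed after the values were seen, varied together over the libraries. Among Epx, Prg2, Prg3, Ear1 and Ear6 the 10 pairwise Spearman correlations of log2 CPM over the 20 libraries ran from 0.85 to 0.98 (Pearson 0.85 to 0.97), and leaving out the 2 libraries farthest from the median left Pearson correlations of 0.83 to 0.96. With the group means taken out, the Spearman values were 0.66 to 0.93, so these genes also moved together among mice of the same group. Ear2 correlated with the other 7 genes at -0.07 to 0.39, Il5ra at 0.09 to 0.39 and Ccr3 at 0.09 to 0.39. With the group means taken out, these ranges were 0.08 to 0.62 for Ear2, highest with Ear6, 0.24 to 0.4 for Il5ra and 0.08 to 0.36 for Ccr3. The libraries share depth and scaling factors, and these correlations are descriptions without a test.

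**Figure D3:**
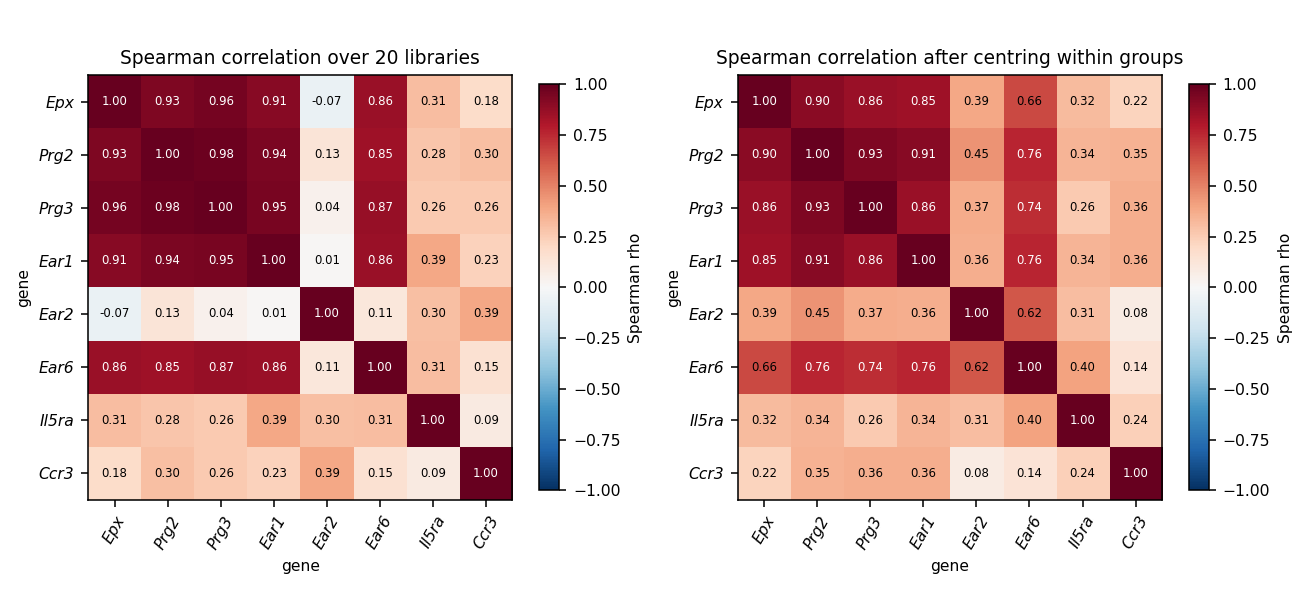
Spearman correlation between the 8 genes over 20 libraries (left) and after subtracting the mean of each of the 4 groups (right), on a scale from -1 (blue) to 1 (red). Epx, Prg2, Prg3, Ear1 and Ear6 correlate at 0.85 or more on the left, where Ear2, Il5ra and Ccr3 reach 0.39 with any gene. On the right Ear2 reaches 0.62, with Ear6.

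The same libraries were at the ends of the order for the 5 genes. IMQ-treated Bmal1Mye-/- libraries 3 and 5 were the highest 2 of all 20 for each of them. Untreated WT library 4 or IMQ-treated WT library 3 was the lowest. For Ear2 the highest library was IMQ-treated WT 1.

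Proportions between these genes varied less than the genes themselves. Prg2 counts were 2.35 to 12.0 times those of Epx over the 20 libraries, although Epx itself varied 37.8-fold. The median ratio of Prg2 to Epx was 5.51 in untreated WT, 4.25 in untreated Bmal1Mye-/-, 3.92 in IMQ-treated WT and 2.92 in IMQ-treated Bmal1Mye-/- libraries. Prg3 departed from this in 1 group: its ratio to Epx was 0.163 to 0.266 in untreated WT, 0.125 to 0.227 in untreated Bmal1Mye-/- and 0.107 to 0.146 in IMQ-treated Bmal1Mye-/- libraries, but 0.0346 to 0.117 in IMQ-treated WT libraries, where 5 to 27 reads stood behind it. The ratio of Ear1 to Ear2 ran from 0.126 to 3.91.

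**Figure D4:**
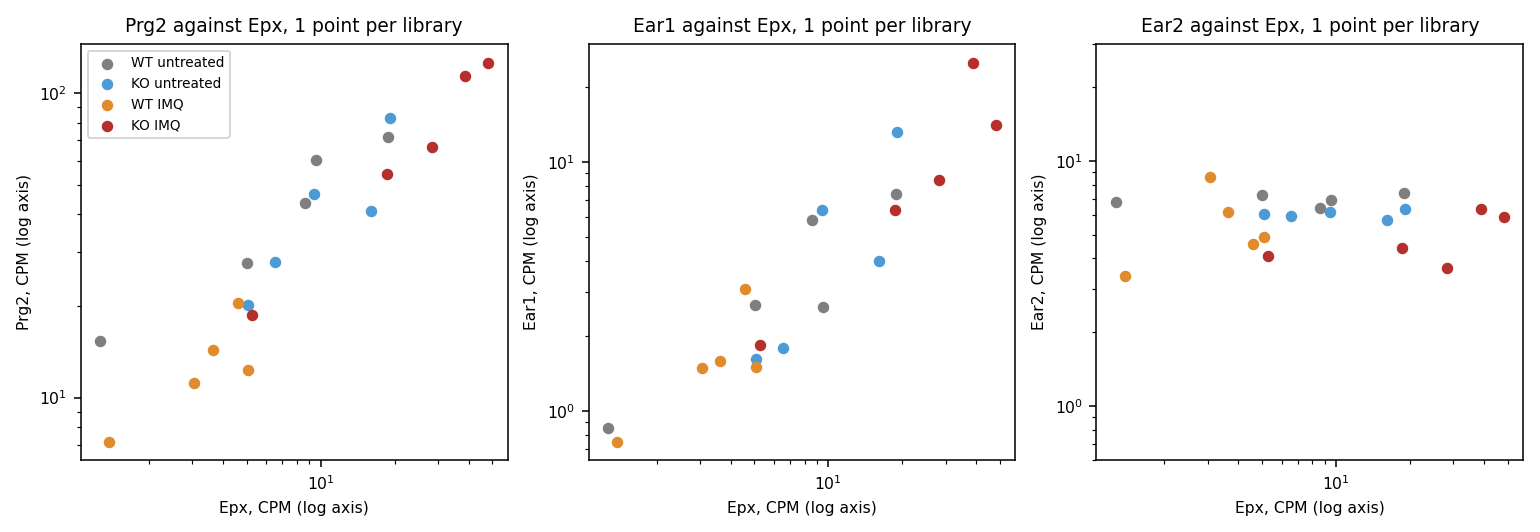
Prg2, Ear1 and Ear2 against Epx, in CPM on log axes, with 1 point for each of the 20 libraries coloured by group. Prg2 and Ear1 climb with Epx over its whole range of 1.27 to 48.1 CPM, and Ear2 stays between 3.39 and 8.59 CPM.

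A wider list of genes tied to eosinophils was counted in the same way. It held 42 genes, of which 41 were listed and 27 tested. Their summed level was 4200 to 8970 CPM over the 20 libraries, against 13.3 to 202.0 CPM for the 8 eosinophil genes. Many are shared with other myeloid cells, so values over this list need not reflect eosinophils. The median log2 fold change over the 27 was 0.0 for IMQ in WT, -0.14 for IMQ in Bmal1Mye-/-, 0.11 for genotype without treatment and -0.19 for genotype after IMQ, beside medians over all genes of 0.03, 0.02, 0.0 and 0.03. Between genotypes edgeR called 0 of the 27 without treatment and 0 after IMQ, with 2 and 6 at an unadjusted p under 0.05 (2.19% and 19.9% of all genes), and DESeq2 also called 0 in both. IMQ in WT raised 1 gene (Csf2rb2), and IMQ in Bmal1Mye-/- raised 3 and lowered 5, so 19 did not pass there. The background was 2.34% called higher in WT, and 14.4% higher and 9.04% lower in Bmal1Mye-/-. Groups that did not overlap were found for 3.11% of all genes with the IMQ group higher in WT, and for 10.8% higher and 9.31% lower in Bmal1Mye-/- mice.

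Siglecf, the paralogue of human SIGLEC8 and the surface marker by which mouse eosinophils are usually sorted, fell with IMQ in Bmal1Mye-/- mice. It was at 14.8, 12.0, 17.0, 14.4 and 15.3 CPM in untreated and 7.25, 11.3, 10.2, 10 and 8.03 CPM in IMQ-treated Bmal1Mye-/- libraries, with no overlap. The log2 fold change was -0.65 ± 0.16 (edgeR adjusted p = 0.0109), and it passed in each of 28 alternative fits. In WT it was at 11.5 to 15.7 CPM untreated and 7.72 to 13.1 CPM with IMQ (-0.44 ± 0.16, adjusted p = 0.106). After IMQ the genotypes were at 9.67 ± 2.27 and 9.34 ± 1.65 CPM (log2 fold change -0.05 ± 0.16, adjusted p = 0.852), an estimate that turned positive with scaling by total count (0.13).

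Among surface proteins that eosinophils share with other myeloid cells, IMQ in Bmal1Mye-/- mice lowered Itgax, the integrin chain CD11c, from 29.6 ± 6.34 to 7.3 ± 2.83 CPM (log2 fold change -2.02 ± 0.42, edgeR adjusted p = 0.00651), which passed in all 28 alternatives. Cd101, an inhibitory immunoglobulin-family receptor of mature granulocytes, went from 306.0 ± 38.6 to 68.8 ± 70.4 CPM (-2.16 ± 0.72, adjusted p = 0.0384). Il1rl1, the interleukin 33 receptor, went from 6.23 ± 1.19 to 3.78 ± 0.974 CPM (-0.72 ± 0.23, adjusted p = 0.0298). Ccr1, a chemokine receptor of neutrophils and eosinophils, went from 526.0 ± 33.5 to 331.0 ± 124.0 CPM (-0.67 ± 0.24, adjusted p = 0.0494). Of these, Cd101 failed the threshold in 8 of 28 alternatives, Il1rl1 in 6 and Ccr1 in 20. Each of Itgax, Cd101 and Ccr1 was lower in every IMQ than in every untreated Bmal1Mye-/- library. In WT, Itgax went from 26.9 ± 7.35 to 10.4 ± 7.38 CPM with IMQ and Cd101 from 301.0 ± 76.6 to 144.0 ± 138.0. Il1rl1 went from 7.24 ± 0.947 to 5.96 ± 2.09 CPM there and Ccr1 from 472.0 ± 79.6 to 452.0 ± 128.0. The main fit called none of them in WT. Itgax was called lower there with DESeq2, total-count scaling, the replicate block or limma, and not with RLE factors, other filters or only the groups compared.

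Of the receptor chains of the interleukin 5, interleukin 3 and GM-CSF family, Csf2rb2 and Il3ra rose. Csf2rb2, the second mouse beta chain, which serves interleukin 3, rose with IMQ in WT from 50.1 ± 6.77 to 97.5 ± 18.2 CPM (log2 fold change 0.96 ± 0.15, edgeR adjusted p = 0.0069), in all 5 libraries and in all 28 alternatives. In Bmal1Mye-/- mice it rose from 64.5 ± 6.72 to 87.5 ± 20.8 CPM (0.44 ± 0.15, adjusted p = 0.0438), a call lost in 12 of 28 alternatives. Il3ra, the interleukin 3 receptor alpha chain, rose in Bmal1Mye-/- from 16.7 ± 0.61 to 38.5 ± 10.7 CPM (1.2 ± 0.24, adjusted p = 0.00556), without overlap and in all 28 alternatives. In WT it reached 27.6 ± 13.5 CPM from 15.5 ± 1.58 without overlap (0.84 ± 0.23, adjusted p = 0.0505). Csf2rb, the beta chain common to the 3 receptors, was between 351.0 and 697.0 CPM and was not called in any comparison, nor was Csf2ra, the GM-CSF receptor alpha chain (log2 fold changes with IMQ in Bmal1Mye-/- mice of -0.2 ± 0.15 for Csf2rb and -0.21 ± 0.17 for Csf2ra).

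**Figure D5:**
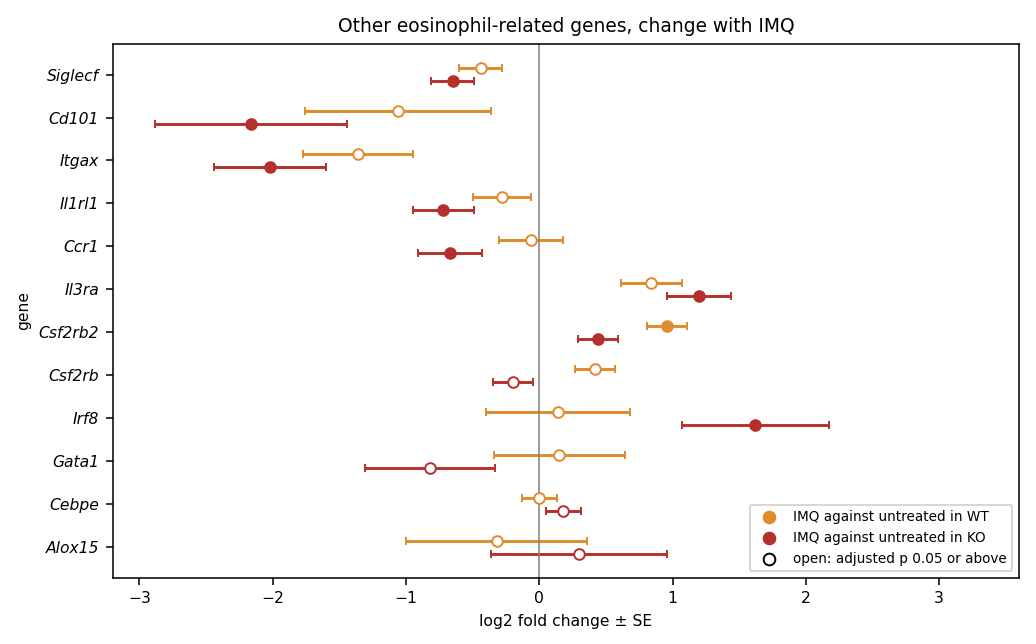
Log2 fold change with IMQ of 12 other eosinophil-related genes in WT (orange) and KO, Bmal1Mye-/- (red) mice, with standard errors as bars. Filled points passed an adjusted p under 0.05 in edgeR over all genes; in KO, 5 filled points lie below 0 (Siglecf, Cd101, Itgax, Il1rl1, Ccr1) and 3 above (Il3ra, Csf2rb2, Irf8).

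The transcription factors of the lineage named here gave no common direction. Gata1, which eosinophil progenitors need, was at 5.62 ± 3.22 CPM in untreated WT, 6.33 ± 2.75 in untreated Bmal1Mye-/-, 6.23 ± 5.21 in IMQ-treated WT and 3.6 ± 1.99 in IMQ-treated Bmal1Mye-/- libraries, and Cebpe, a factor of terminal granulocyte maturation, lay between 334.0 and 597.0 CPM. Neither was called (edgeR adjusted p for genotype after IMQ 0.324 and 0.577). Gata2, also on the basophil and mast cell list, was at 0.48 ± 0.2 CPM in IMQ-treated WT and 1.35 ± 1.07 in IMQ-treated Bmal1Mye-/- libraries. The main fit did not call it in any comparison. For genotype after IMQ it was called higher without IMQ-treated WT library 3, beside 13.5% of all genes. The same held without IMQ-treated Bmal1Mye-/- library 4, beside 1.19%. Zfpm1, Cebpa, Spi1, Xbp1, Id2 and Trib1 were not called in the main fit. Irf8, which directs progenitors to monocytes and away from neutrophils and is a marker on the monocyte list too, rose with IMQ in Bmal1Mye-/- mice (1.62 ± 0.55, adjusted p = 0.0413). Its 5 values there were 133.0, 46.1, 14.1, 13.7 and 8.29 CPM against 9.07 to 22.3 untreated, and without library 1 the change was 0.56 (adjusted p = 0.324), with the replicate block 1.25 (adjusted p = 0.104). Alox15, the lipoxygenase of eosinophils, was at 1.05 ± 0.472 CPM in IMQ-treated WT and 3.14 ± 2.37 in IMQ-treated Bmal1Mye-/- libraries (1.58 ± 0.68, adjusted p = 0.237).

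The members of the list that were not tested were scarce. Ear3, Ear4, Ear7, Ear12 and Ear14 had 0 reads in every library, which allows up to 0.0324 CPM in the deepest and 0.0975 CPM in the shallowest library (3 reads, counting error only). Hba-a1 and Hbb-bs, globin genes with close copies, also had 0 reads in every library while Alas2, the haem synthesis enzyme of red cell precursors, reached 108.0 CPM. A count of 0 for a gene with near-identical copies therefore need not bound its expression. Ear14 shared no 50-base window with another annotated gene, so this reservation was not shown to apply to it. Shared windows were not computed for Ear3, Ear4, Ear7 and Ear12. Another 9, among them Ear10, Rnase2a, Rnase2b and the cytokines Il5, Il3, Csf2, Ccl11 and Ccl24, were counted but did not pass the filter, with no library above 0.778 CPM. Ear5 was not listed under that symbol.

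Over the 20 libraries, the 10 genes outside the set most like its mean by Spearman correlation were Ctla2b (0.83), Itga2b (0.78), Ctla2a (0.78), Trim47 (0.78), Alox15 (0.77), Timp3 (0.76), Pdgfb (0.75), Myl9 (0.75), Fdx1 (0.74) and Immp1l (0.74). Several were low, and Ctla2b did not exceed a group mean of 0.406 CPM. Itga2b, a platelet integrin that is also on the megakaryocyte marker list, was at 11.4 ± 6.61 CPM in untreated and 4.68 ± 0.657 in IMQ-treated WT libraries, a difference that did not pass the test (edgeR adjusted p = 0.0787). The list was not stable: leaving out IMQ-treated WT library 3 left 1 of the 10 genes among the 10 most alike, and leaving out IMQ-treated Bmal1Mye-/- library 5 left 3. Taken singly, a choice made after seeing the data, the nearest gene outside the set was Alox15 for Ear1 (0.9) and Zfp704 for Prg3 (0.85), whereas it was Wdr47 for Ear2 (0.77), Slco2a1 for Il5ra (0.66) and Olfm4 for Ccr3 (0.84).

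Markers of other cells were counted beside the granule genes. Of the 10 basophil and mast cell genes all were listed and 6 tested. The summed level of the 9 other than Hdc, which neutrophils also express, was 3.4 to 9.0 CPM in untreated WT, 2.39 to 16.6 in untreated Bmal1Mye-/-, 3.01 to 4.89 in IMQ-treated WT and 3.34 to 18.5 in IMQ-treated Bmal1Mye-/- libraries. Mcpt8, a basophil protease, was at 1.12, 0.815, 0.84, 0.687 and 0.836 CPM in IMQ-treated WT and at 4.57, 3.52, 1.65, 0.649 and 2.78 CPM in IMQ-treated Bmal1Mye-/- libraries, with library 4 lowest as for the granule genes. None of the 6 was called between genotypes after IMQ by edgeR (5 at an unadjusted p under 0.05, beside 19.9% of all genes, smallest adjusted p 0.197), while the mast cell proteases Tpsb2 and Cma1 were at or near 0 in every library. The part of basophil content in the eosinophil values was not tested.

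The lists of other cells gave these counts for genotype after IMQ. None of 9 neutrophil, 11 monocyte and macrophage, 6 myeloid progenitor, 4 erythroid, 5 B lineage, 3 T and NK and 3 megakaryocyte genes tested was called, with 0, 4, 2, 2, 0, 1 and 1 at an unadjusted p under 0.05, a threshold that 19.9% of all genes passed. Median log2 fold changes were -0.24, 0.99, 1.13, -1.09, 0.49, 0.61 and 0.91. The progenitor genes, which include the primary granule genes Mpo and Elane, summed to 121.0 to 654.0 CPM in IMQ-treated WT and 226.0 to 1610.0 CPM in IMQ-treated Bmal1Mye-/- libraries, and the monocyte genes to 337.0 to 738.0 and 249.0 to 3140.0 CPM. IMQ in Bmal1Mye-/- mice raised 5 of the 11 monocyte genes (Ccr2, F13a1, Fn1, Irf8 and Ms4a6c), beside 14.4% of all genes called higher, raised Ms4a2 of the basophil list, and among the genes of the other lists that it lowered were Csf3r and Cd79a. Library 1 was the highest for these monocyte genes, with Ccr2 at 416.0 CPM against 25.4 to 106.0 in the other 4 IMQ-treated Bmal1Mye-/- libraries and Fn1 at 1390.0 against 85.2 to 580.0. Without it, a fit considered after these values were seen, 1 of the 11 was called higher, Ccr2 (log2 fold change 1.06 ± 0.34, edgeR adjusted p = 0.0458). Leaving out untreated Bmal1Mye-/- library 1, 3, 4 or 5 left 3, 3, 2 and 3 of the 5 calls. Their part in the levels of the eosinophil genes was not tested.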

How the data were processed

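Poly(A) RNA of bone marrow neutrophils was sequenced by the authors on a NovaSeq or a NextSeq sequencer (which library ran on which instrument is not given in the sources used here, so no value within an instrument could be computed). The submitters' processing notes name bcl2fastq, STAR 2.7.8a, HTSeq 2.0.1 and mm10, whereas the study's methods name another aligner and RPKM values; gene annotation and strand setting are not given in the sources used here. The deposited unit is raw read counts per gene. Reads on genes were 37.4% to 42.0% of those reported and reads on no annotated feature 51.9% to 57.8%; rows that name no gene were left out of library sizes and tests, and a merged copy of the same counts was not used.

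The 8 members and the other lists were chosen with earlier results of these data known. Counts were fitted with edgeR 4.0.16 in R 4.3.3 (TMM factors, filterByExpr, quasi-likelihood test, 1 mean for each of the 4 groups, 16 residual degrees of freedom), and p-values were adjusted by Benjamini-Hochberg over all 14030 genes tested. Levels are CPM with TMM factors, and correlations and likeness used log2(CPM + 0.1). Other fits used DESeq2 1.42.0, limma 3.58.1, other scalings and filters, a replicate block, the compared groups only, or 19 of the 20 libraries. Named were all 8 members, the genes of the fixed list that passed in any comparison and Siglecf, Gata1, Cebpe, Alox15 and Csf2rb, the 10 most like genes, marker genes, Arntl and Lyz2. The labels share replicate numbers and do not say whether these pair the samples. Same-numbered IMQ and untreated Bmal1Mye-/- libraries deviated together (correlations 0.19 to 0.408). Libraries with different numbers were not compared in this way, so these values cannot settle whether the numbers mark pairs. The main fit has no block and would ignore such a pairing. For the 8 genes and Irf8, the value with the replicate number as a block stands beside a call that it changes. The test was checked on simulated data in which genes were drawn independently and no library was made to stand apart. That check does not bear on calls that rest on single libraries. The labels do not tie libraries to mice; the study's methods equate each point of an animal experiment with a single mouse, and libraries were treated as separate mice. Transcripts were from GENCODE M21 and compared with Biopython 1.88. The result of 1 marker gene is not reported here.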

Additional observations from a re-analysis of the deposited data

Results flagged for a closer look

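Of 80 sets of 5 libraries (20 genes in 4 groups), 8 held a library whose gap to its nearest neighbour exceeded 0.71 of the range of the set. For independent sets of normally distributed values, chance gives about 1 in 20, or 4.0. The values were CPM without a log and the genes share libraries, so that number need not apply here. In each of the 8 sets the library that stood apart was the highest. Among the eosinophil lineage genes, Ear6 was at 1.26 CPM in untreated Bmal1Mye-/- library 1, with the other 4 at 0.449 to 0.673. Il5ra was at 1.85 CPM in IMQ-treated WT library 1 (the others 0.07 to 0.447) and at 2.26 CPM in IMQ-treated Bmal1Mye-/- library 4 (the others 0.285 to 0.586). Ccr3 was at 1.26 CPM in IMQ-treated WT library 5 (the others 0.125 to 0.427). Alox15 was at 7.28 CPM in IMQ-treated Bmal1Mye-/- library 5 (the others 1.29 to 2.66), and Cebpe at 597.0 CPM in library 3 of that group (the others 366.0 to 422.0). In IMQ-treated WT mice Gata1 was at 15.3 CPM in library 3 (the others 2.79 to 5.97) and Irf8 at 24.2 CPM in library 5 (the others 11.5 to 13).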

How the results depend on the processing

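The number of eosinophil lineage genes called for IMQ in WT, 2 in the report, was 1 with scaling by total count, with no filter, with a minimum of 10 counts in every library (4 of the 8 genes were then tested), with the replicate block and with limma, 0 with only the groups compared, and 0 to 3 without single libraries. For IMQ in Bmal1Mye-/- mice it was 0, 1 with the replicate block and 0 to 1 without single libraries. For genotype after IMQ it was 3, 5 with DESeq2, 1 with limma, 0 with only the groups compared and 0 to 5 without single libraries; with the replicate block it was 2. Of the other eosinophil-related genes, IMQ in WT called 1, 3 with DESeq2, 2 with RLE factors, total count, the replicate block or limma, and 1 to 5 without single libraries. IMQ in Bmal1Mye-/- called 8 of them, and 4 to 9 without single libraries, and genotype after IMQ 0, and 0 to 2. Both lists stayed at 0 for untreated genotype and for the interaction under all alternatives. Of the 10 most alike genes 5 remained with total-count scaling, 3 after centring within groups and 1 to 9 without single libraries. The cause of these differences was not tested.

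Among the other eosinophil-related genes named, recomputed for IMQ in Bmal1Mye-/- and genotype after IMQ, estimates that changed sign were those of Siglecf for genotype after IMQ (0.13 by total count, 0.01 without IMQ-treated WT library 4, 0.09 without WT library 5, 0.04 without IMQ-treated Bmal1Mye-/- library 1, and -0.12 to 0.09 over all libraries left out in turn), Alox15 for IMQ in Bmal1Mye-/- (-0.28 without IMQ library 5, up to 1.11 without others) and Cebpe for genotype after IMQ (-0.02 without Bmal1Mye-/- IMQ library 3, up to 0.22 without others). Among the 8 eosinophil lineage genes, uncalled estimates also changed sign. For genotype after IMQ, the ranges without single libraries were -0.48 to 1.31 for Il5ra, -0.42 to 0.74 for Ccr3 and -0.3 to 0.05 for Ear2 (0.06 by total count). For untreated genotype they were -0.37 to 0.24 for Prg2, whose estimate was 0.0, -0.16 to 0.86 for Ear1, -0.05 to 0.68 for Prg3 and -0.31 to 0.32 for Il5ra (-0.26 with the replicate block, -0.09 with limma). For IMQ in WT the range was -0.26 to 0.96 for Il5ra, and for the interaction -0.55 to 1.24 for Il5ra, -0.63 to 0.55 for Ccr3 (0.01 by total count) and -0.09 to 0.26 for Ear2 (-0.01 with RLE factors). Scaling by total count moved the median of all genes by 0.12 (log2) for IMQ in Bmal1Mye-/- and by 0.19 for genotype after IMQ. Deviations of same-numbered libraries correlated at 0.0734 to 0.579 for IMQ in WT and at -0.45 to 0.409 (untreated) and -0.536 to 0.346 (IMQ) between genotypes. Without values for libraries with different numbers, these cannot settle whether the numbers mark pairs. Depth limits Prg3, Ear6, Il5ra and Ccr3, whose lowest libraries held 2 to 6 reads.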
